A study of Homo sapiens with 6 samples.

Results

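Nucleotide excision repair removes bulky, helix-distorting lesions from DNA, and 10 of its core genes were followed: XPA, XPC, DDB1, DDB2, ERCC1, ERCC2, ERCC3, ERCC4, ERCC5 and ERCC6. They were taken by name from the 19514 gene names of the deposited table, and each of the 10 was found in a single row. The cells were ARPE-19, an established wild-type human line of retinal pigment epithelium, the cell layer that supports the photoreceptors. A treated group received tt-DDE (trans,trans-2,4-decadienal, a reactive dienal that arises in lipid peroxidation) at 40 µM for 24 h, and a control group received the same volume of its DMSO vehicle for 24 h. The 2 groups held 3 libraries of polyadenylated RNA each. The labels do not say that the libraries came from separate cultures, so p-values measure the spread between these libraries, which may be technical.

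In this pathway a lesion is found along either of 2 routes. In global genome repair, the DDB1-DDB2 complex and the XPC complex recognise damage anywhere in the genome, and in transcription-coupled repair a stalled RNA polymerase II recruits ERCC6 (CSB) and ERCC8 (CSA). Both routes then bring in TFIIH, whose helicases ERCC3 (XPB) and ERCC2 (XPD) open the helix. XPA checks the lesion, the nuclease ERCC5 (XPG) and the nuclease pair ERCC4-ERCC1 (XPF-ERCC1) cut the strand on either side of it, and replication proteins fill and seal the gap. Inherited loss of many of these genes causes xeroderma pigmentosum, Cockayne syndrome or related disorders.

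The promoter windows of 4 genes are shown because these genes carry the contrasts described here: DDB2 had the largest fall, XPC is the lesion sensor whose change did not pass, and ERCC2 and ERCC3 are the TFIIH helicases that moved in opposite directions. Each window runs from 250 bases before to 50 bases after a transcription start in the RefSeq table for GRCh38.p14, and capitals mark matches, on either strand, to any motif searched.
DDB2 promoter, chr11:47214724-47215023, plus strand: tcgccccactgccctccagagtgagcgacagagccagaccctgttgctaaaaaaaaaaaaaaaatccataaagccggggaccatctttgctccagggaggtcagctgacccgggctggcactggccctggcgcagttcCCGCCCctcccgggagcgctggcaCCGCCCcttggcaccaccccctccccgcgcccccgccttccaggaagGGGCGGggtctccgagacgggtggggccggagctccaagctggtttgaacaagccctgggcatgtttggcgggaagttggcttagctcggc
XPC promoter, chr3:14178552-14178851, minus strand: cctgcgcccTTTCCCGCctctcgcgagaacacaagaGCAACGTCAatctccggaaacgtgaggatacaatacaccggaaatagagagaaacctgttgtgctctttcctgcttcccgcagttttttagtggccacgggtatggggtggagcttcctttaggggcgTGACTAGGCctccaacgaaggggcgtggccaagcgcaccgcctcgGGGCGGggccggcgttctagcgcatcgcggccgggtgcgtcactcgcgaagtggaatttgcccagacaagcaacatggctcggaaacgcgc
ERCC2 promoter, chr19:45370524-45370823, minus strand: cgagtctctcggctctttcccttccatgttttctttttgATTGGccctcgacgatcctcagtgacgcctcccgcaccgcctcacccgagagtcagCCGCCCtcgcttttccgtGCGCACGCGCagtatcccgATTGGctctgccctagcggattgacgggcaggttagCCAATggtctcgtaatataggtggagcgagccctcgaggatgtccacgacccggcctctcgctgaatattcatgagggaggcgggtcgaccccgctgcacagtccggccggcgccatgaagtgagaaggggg
ERCC3 promoter, chr2:127294095-127294394, minus strand: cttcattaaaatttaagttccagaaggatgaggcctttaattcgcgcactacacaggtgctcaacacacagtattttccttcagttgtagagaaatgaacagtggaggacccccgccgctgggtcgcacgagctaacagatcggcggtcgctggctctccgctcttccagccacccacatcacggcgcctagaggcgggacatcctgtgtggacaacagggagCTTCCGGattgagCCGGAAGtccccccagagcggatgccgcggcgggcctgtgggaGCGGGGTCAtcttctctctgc

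The motifs were the CRE palindrome (TGACGTCA), the C/EBP-ATF element (TGATGNAAN), the heat shock element, the ER stress response element (which contains a CCAAT box), the antioxidant response core (TGACNNNGC), the E2F elements TTTCCCGC and TTTGGCGC, the CCAAT box, the GC box (GGGCGG), the NRF1 element, the ETS element (CCGGAAG) and the TATA box (TATAAA). All 10 genes matched the RefSeq table, with 14 windows in all. The DDB2 window shown holds GC boxes, found in 44.95% of all 35116 RefSeq windows. A second DDB2 window, chr11:47214204-47214503, holds 3 CCAAT boxes and no GC box. The XPC window holds TTTCCCGC, found in 1.63% of all windows, and antioxidant response cores, found in 13.3% of all windows. The ERCC2 window holds CCAAT boxes (34.6% of all windows), a GC box and an NRF1 element (5.78%), and the ERCC3 window holds an antioxidant response core and ETS elements (10.3%). The CRE palindrome, the C/EBP-ATF element, the heat shock element, the ER stress response element, the second E2F element and the TATA box had no match in the 14 windows, against shares of 1.85%, 3.61%, 0.478%, 0.077%, 0.652% and 11.5% of all windows. The median GC content was 61.0% in the 14 windows and 58.7% in all windows. These matches describe the sequence and do not show binding.

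Each DMSO library held 14156421 to 16061373 counts, and each treated library 15548067 to 17130543. Of the defining markers of retinal pigment epithelium, RPE65 was at 0 in all 6 libraries, and the summed level of the 12 listed markers, of which 11 had counts, was 2051 to 2085 CPM (counts corrected for library size) in DMSO and 801 to 832 CPM after tt-DDE. That sum is mostly EZR, KRT8 and KRT18, which other epithelia also express and which fell. The 12 markers did not move together: of 10 tested, 5 fell, 2 rose and 3 did not pass, with BEST1 rising from 0.506 to 21.6 CPM, TYRP1 from 1.15 to 2.39 CPM, and OTX2 at 64.0 and 62.9 CPM. Summed leukocyte markers were at 0.249 to 0.629 CPM in DMSO and 1.89 to 3.04 CPM after tt-DDE, with counts for 4 of 5 and CD3E at 0. These did not move together. CD14 went from 2 counts over the DMSO libraries to 84 over the tt-DDE libraries and ITGAM from 9 to 31. PTPRC went from 6 to 4 counts and LYZ from 4 to 2. Endothelial markers were at 1.45 to 1.62 and 1.95 to 2.12 CPM (5 of 5 with counts), photoreceptor and neuron markers at 0.187 to 0.314 and 0.759 to 1.28 CPM (4 of 5, CRX at 0), and keratinocyte markers at 16.2 to 20.5 and 16.3 to 21.4 CPM (4 of 5, KRT1 at 0). Single genes carried much of these sums. Over the DMSO and the tt-DDE libraries, KDR had 59 and 59 counts, RBFOX3 0 and 36, and KRT10 848 and 939. SNAP25 went the other way from RBFOX3, with 10 and 2 counts. While KDR did not move, PECAM1 went from 2 to 21 counts and TEK from 0 to 10. VWF had 7 and 8 counts and CDH5 had 2 and 1. The 8 proliferation markers summed to 2465 to 2492 CPM in DMSO and 85.1 to 94.7 CPM after tt-DDE. The part of any of these shifts in the values below was not tested, and in such bulk samples fewer cells of a type and less RNA per cell cannot be told apart.

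After tt-DDE, DDB2, ERCC2, ERCC6 and XPA were lower, ERCC3, ERCC1, ERCC4 and DDB1 were higher, and XPC and ERCC5 did not pass an adjusted p of 0.05 (edgeR, quasi-likelihood F test, Benjamini-Hochberg over 12531 genes). All 10 genes passed the filter on low counts. Over all genes tested 83.3% passed in either direction, 41.7% higher and 41.6% lower, so the share of 8 in 10 is near the background and is no result about this pathway. The genes differed in the direction and in the size of the change. The falls of DDB2 and ERCC2 were at least 2-fold, as were those of 16.8% of all genes, and 0 of the 10 genes rose by 2-fold, against 16.1% of all genes. With only 10 genes, these shares are no result about this pathway either. The median log2 fold change was -0.15 for the 10 genes and 0.0013 for all genes tested. In 8 of the 10 genes the 3 libraries of a group lay entirely above those of the other, as in 83.9% of all genes.

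**Figure D1:**
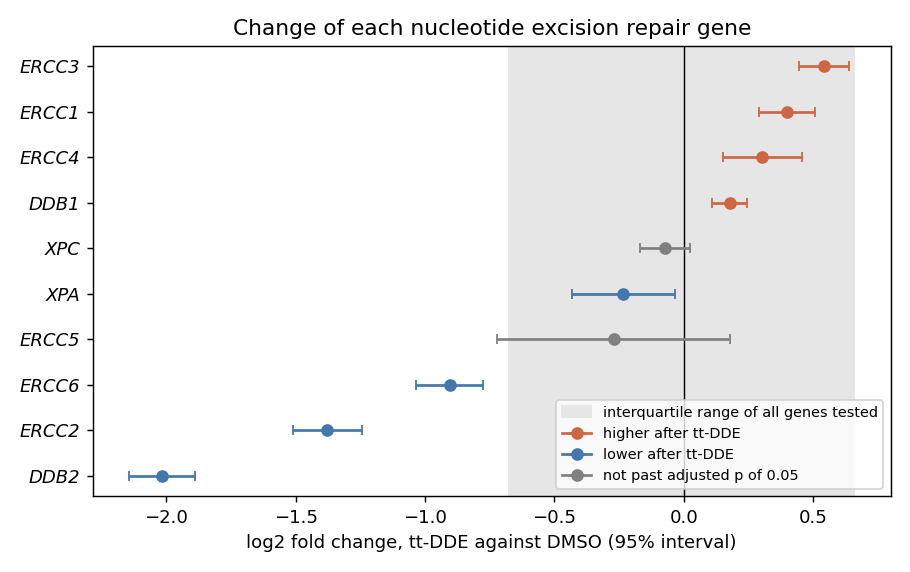
The log2 fold change (tt-DDE against DMSO, horizontal axis) of each gene with its 95% interval from the edgeR fit, n = 3 libraries per group; the grey band is the interquartile range of all genes tested, -0.68 to 0.66. DDB2, ERCC2 and ERCC6 lie to the left of the band, and the other 7 genes lie inside it.

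Among the recognition factors of global genome repair, DDB2, the subunit of the UV-damaged DNA binding complex that contacts the lesion, fell most. Its level was 93.4, 86.0 and 88.5 CPM in DMSO libraries 1 to 3, against 22.8, 22.6 and 20.7 CPM with tt-DDE (CPM scaled with TMM factors). The treated libraries all lay far below the controls. The means were 89.3 ± 3.75 and 22.0 ± 1.17 CPM (SD, n = 3 each), which is 4.05-fold lower, with a log2 fold change of -2.02 (SE 0.0627) and an edgeR adjusted p = 9.87e-31. Of all genes tested, 4.46% had a lower log2 fold change. DDB2 lies on the plus strand of chromosome 11 at 47214969 to 47239218 (GRCh38.p13, as in the deposited table). None of its annotated exons in GENCODE release 29 overlap exons of another protein-coding gene.

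DDB1, the partner of DDB2 and the adaptor of the CUL4 ubiquitin ligases, moved slightly the other way. It was at 738, 729 and 728 CPM in DMSO and at 832, 811 and 843 CPM after tt-DDE, so every treated library was above every control. The log2 fold change was 0.18 (SE 0.0336, edgeR adjusted p = 5.6e-06), and 0.09 (adjusted p = 0.0164) when libraries were scaled by their size alone. DDB1 lies at 61299451 to 61333105 on the minus strand of chromosome 11. Without correction for gene length, its mean CPM was the highest of the 10 genes, above 99.2% of all genes tested. Of its annotated exonic bases in GENCODE 3.73% are shared with TKFC, on the other strand, and the part of TKFC reads in its value was not tested.

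XPC, which with RAD23B and CETN2 senses the distorted helix, was at 107, 105 and 107 CPM in DMSO and at 107, 95.3 and 101 CPM after tt-DDE. The groups overlapped, since tt-DDE library 1 was as high as the controls. The log2 fold change was -0.07, with a 95% interval of -0.17 to 0.02 and an edgeR adjusted p = 0.159. Without tt-DDE library 1 it was -0.11 (adjusted p = 0.0409), and -0.16 (adjusted p = 0.00192) with library size alone. XPC lies at 14145145 to 14178601 on the minus strand of chromosome 3. Of its annotated exonic bases 15.2% are shared with exons of other protein-coding genes (LSM3 and AC090004.1), all on the other strand. The part of their reads in the XPC value was not tested.

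ERCC6, the SWI/SNF-family translocase CSB that acts on stalled RNA polymerase II, fell by less than 2-fold. It was at 59.3, 58.8 and 57.0 CPM in DMSO and at 32.2, 32.4 and 28.8 CPM after tt-DDE, with no overlap between the groups. The log2 fold change was -0.91 (SE 0.0634, edgeR adjusted p = 1.77e-17), or 1.87-fold lower. ERCC6 is the longest of the 10 genes, spanning 105 kb of chromosome 10 (49434881 to 49539538, minus strand). PGBD3, a transposase gene that lies within it on the same strand and is known to share its first exons in a fusion transcript, had 2 counts over the DMSO libraries and 2 over the tt-DDE libraries.

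XPA, the zinc finger scaffold that verifies the lesion, was at 16.5, 17.9 and 17.96 CPM in DMSO and at 13.6, 16.2 and 14.8 CPM after tt-DDE. The groups were apart by a narrow gap between DMSO library 1 and tt-DDE library 2. Its log2 fold change of -0.23 (SE 0.0984) passed with an edgeR adjusted p = 0.0273. The call was lost without DMSO library 2 (-0.22, adjusted p = 0.0687), without DMSO library 3 (-0.22, adjusted p = 0.0736), without tt-DDE library 1 (-0.17, adjusted p = 0.14) and with DESeq2 (-0.23, adjusted p = 0.0895). XPA lies at 97654398 to 97697403 on the minus strand of chromosome 9, and 19351 bases of that span overlap NCBP1, the nuclear cap-binding subunit gene, on the plus strand. NCBP1 fell too (-0.60). None of the 1833 exonic bases that GENCODE annotates for XPA lie in an exon of another protein-coding gene, but the table gives XPA a length of 3233 bases, and the part of NCBP1 reads in its value was not tested.

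The helicases of TFIIH, which serve in both repair and transcription initiation, moved in opposite directions. ERCC2 was at 74.5, 68.6 and 71.9 CPM in DMSO and at 29.8, 24.1 and 28.8 CPM after tt-DDE. Its groups were far apart, 71.7 ± 2.94 against 27.6 ± 3.08 CPM (SD, n = 3); on the log2 scale the change was -1.38 (SE 0.0665, edgeR adjusted p = 2.35e-23). ERCC3 was at 85.5, 87.0 and 90.5 CPM in DMSO and at 121, 127 and 136 CPM after tt-DDE. Each treated library exceeded each control, with a log2 fold change of 0.54 (SE 0.0481, edgeR adjusted p = 4.82e-14), the largest rise among the 10 genes. ERCC3 lies at 127257290 to 127294166 on the minus strand of chromosome 2. ERCC2 lies at 45349837 to 45370647 on the minus strand of chromosome 19, and its end overlaps KLC3, a kinesin light chain gene on the other strand, by 1712 bases. KLC3 had 50 counts in DMSO against 3407 for ERCC2, and rose (log2 fold change 1.41, edgeR adjusted p = 1.14e-05). Whether strand was used in counting is not given in the sources used here, and reads of the shared bases cannot be told apart.

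Both subunits of the nuclease that cuts upstream of the lesion rose by similar amounts. ERCC1, the DNA-binding subunit, was at 54.8, 54.9 and 55.5 CPM in DMSO and at 73.6, 71.1 and 73.1 CPM after tt-DDE. ERCC4, the catalytic subunit, was at 26.4, 24.96 and 26.3 CPM in DMSO and at 33.4, 33.1 and 29.2 CPM after tt-DDE. In both genes all treated libraries were above all controls, although tt-DDE library 3 was the lowest of the treated ones for ERCC4. The log2 fold changes were 0.40 for ERCC1 (SE 0.0534, edgeR adjusted p = 5.2e-09) and 0.30 for ERCC4 (SE 0.0753, edgeR adjusted p = 0.000313). ERCC4 occupies 13920137 to 13952348 on the plus strand of chromosome 16. ERCC1 occupies 45407334 to 45451547 on the minus strand of chromosome 19, near ERCC2, and 29.1% of its annotated exonic bases are shared with POLR1G (annotated as CD3EAP in GENCODE), an RNA polymerase I subunit gene on the other strand. POLR1G fell (log2 fold change -2.17, edgeR adjusted p = 7.26e-13), with 325 counts in DMSO against 2621 for ERCC1. In the principal GENCODE transcript of ERCC1 the shared part is 41.6% of the bases. The part of POLR1G reads in the ERCC1 value was not tested.

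ERCC5, the nuclease that cuts downstream of the lesion, had few counts. It was at 3.71, 2.50 and 3.12 CPM in DMSO and at 2.40, 2.90 and 2.39 CPM after tt-DDE, from 147 and 122 counts, and the groups overlapped. Its log2 fold change of -0.27 had a 95% interval of -0.72 to 0.18 and did not pass (edgeR adjusted p = 0.259), so a difference was not detectable at these counts. ERCC5 lies at 102846032 to 102875995 on the plus strand of chromosome 13, wholly inside BIVM-ERCC5, a readthrough gene of the same strand that was listed at 0 counts in all 6 libraries. Of the bases of its principal GENCODE transcript 70.1% are shared with other protein-coding genes on the same strand, and the treatment of reads in shared exons is not stated in the sources used here. The level of ERCC5 is therefore uncertain.

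**Figure D2:**
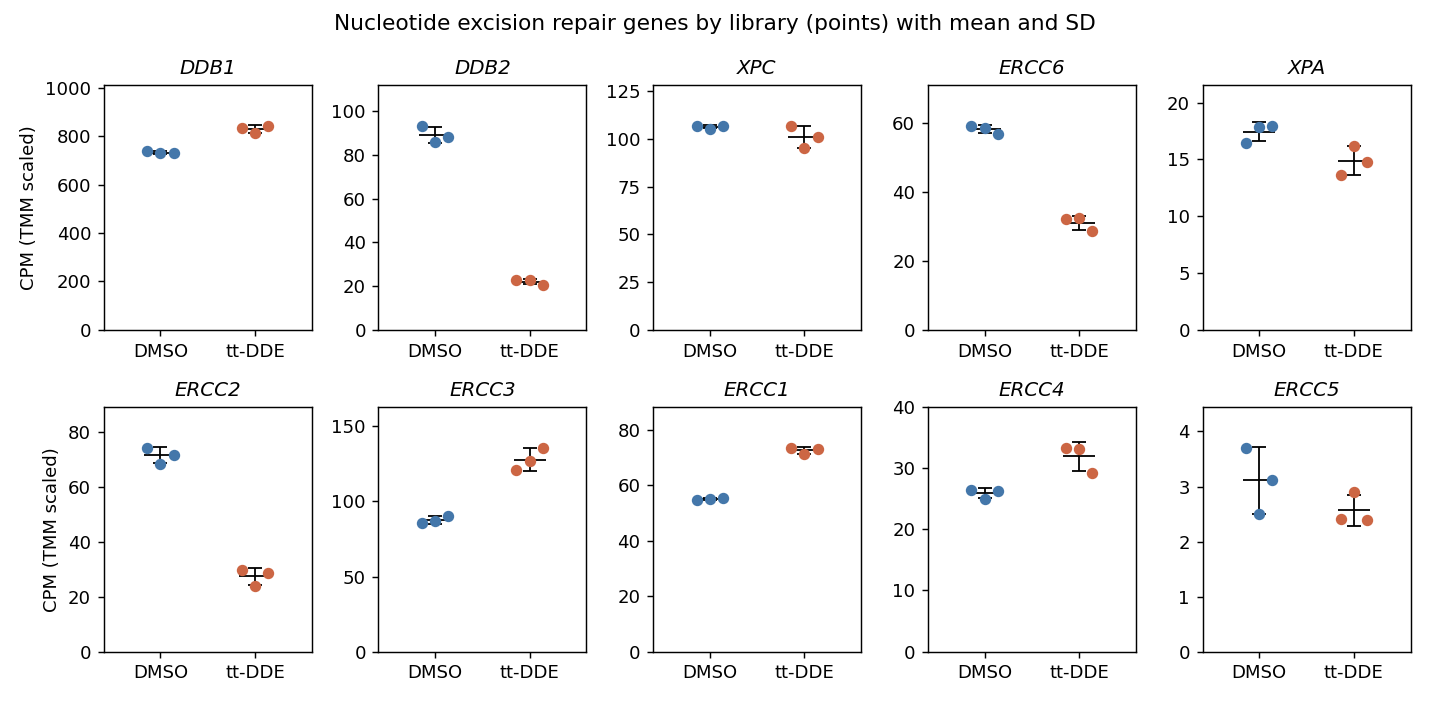
CPM scaled with TMM factors (vertical axis, from 0 in each panel) of the 10 genes in the 3 DMSO and 3 tt-DDE libraries; points are libraries and bars show the mean and SD. The groups are apart in 8 panels and overlap for XPC and ERCC5.

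Levels can be compared between genes only per length, and the deposited FPKM (counts scaled to gene length and library size) served for this. In DMSO the order from highest to lowest level was DDB1 (178 FPKM), DDB2 (50.6 FPKM), ERCC3 (30.0 FPKM), XPC (19.5 FPKM), ERCC2 (16.0 FPKM), ERCC1 (11.9 FPKM), XPA (5.57 FPKM), ERCC4 (3.72 FPKM), ERCC6 (1.97 FPKM) and ERCC5 (0.826 FPKM), and no neighbours in this order overlapped between libraries. After tt-DDE, DDB2 dropped in this order to 11.7 ± 0.631 FPKM (SD, n = 3), behind ERCC3 (41.0 FPKM), XPC (17.4 FPKM) and ERCC1 (14.8 FPKM). ERCC2 was then at 5.78 FPKM, and XPA (4.10 to 4.83 FPKM) and ERCC4 (3.94 to 4.51 FPKM) overlapped. These levels depend on the length used. The table gives ERCC6 a length of 30621 bases, whereas its principal GENCODE transcript has 8008, with which its DMSO level would be 7.52 FPKM and above that of ERCC4 (3.95 FPKM).

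**Figure D3:**
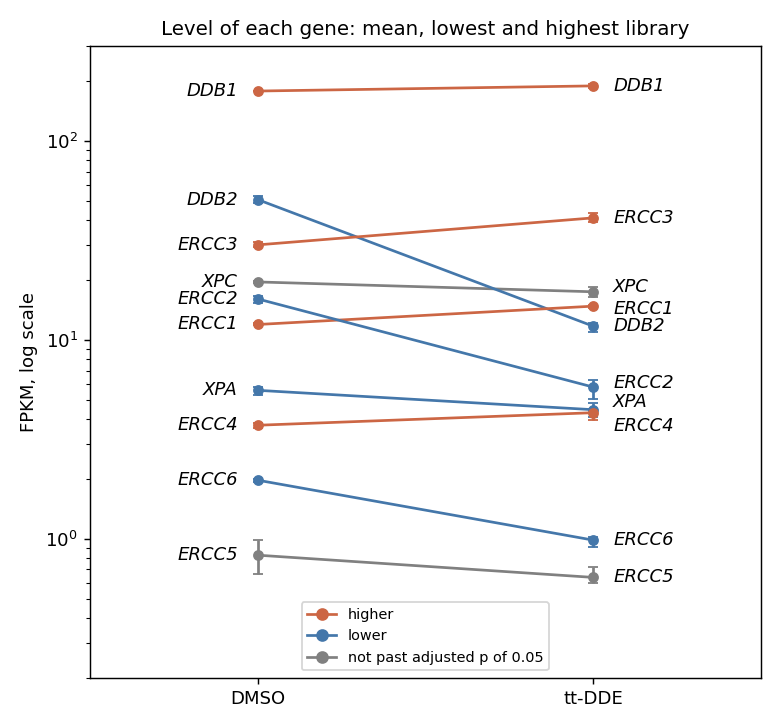
Level of each gene in FPKM (vertical axis, log scale) in DMSO and after tt-DDE; points are means of 3 libraries, bars reach the lowest and the highest library, and colour gives the edgeR call. DDB2 drops from 50.6 to 11.7 FPKM and crosses ERCC3, XPC and ERCC1.

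Ratios of FPKM between pairs of genes within a library do not depend on the scaling between libraries, and 5 pairs were compared. The smallest two-sided p that an exact permutation test of 3 against 3 libraries can give is 0.1, so none of the 5 could pass 0.05. The DDB2 to DDB1 ratio was 0.295, 0.275 and 0.283 in DMSO libraries 1 to 3, against 0.0639, 0.065 and 0.0572 with tt-DDE. The groups were apart, by -2.20 on the log2 scale (exact permutation p = 0.1, adjusted p = 0.167). The ERCC2 to ERCC3 ratio was 0.57, 0.516 and 0.519 in DMSO and 0.161, 0.124 and 0.139 after tt-DDE. This pair differed by -1.93 on the log2 scale, again with no overlap (exact permutation p = 0.1, adjusted p = 0.167).

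The XPC to RAD23B ratio was lower after tt-DDE in every library, 0.149 to 0.166 against 0.211 to 0.227 in DMSO (log2 difference -0.50, exact permutation p = 0.1, adjusted p = 0.167). RAD23B, which stabilises XPC, itself rose (log2 fold change 0.43). The ERCC4 to ERCC1 ratio of the nuclease pair overlapped between the groups, 0.301 to 0.319 in DMSO and 0.265 to 0.308 after tt-DDE, with a log2 difference of -0.10 (exact permutation p = 0.2, adjusted p = 0.25). The ERCC5 to XPA ratio also overlapped, at 0.116 to 0.187 and 0.135 to 0.149 (log2 difference -0.03, exact permutation p = 1). That difference ranged from -0.20 to 0.14 as single libraries were left out.

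**Figure D4:**
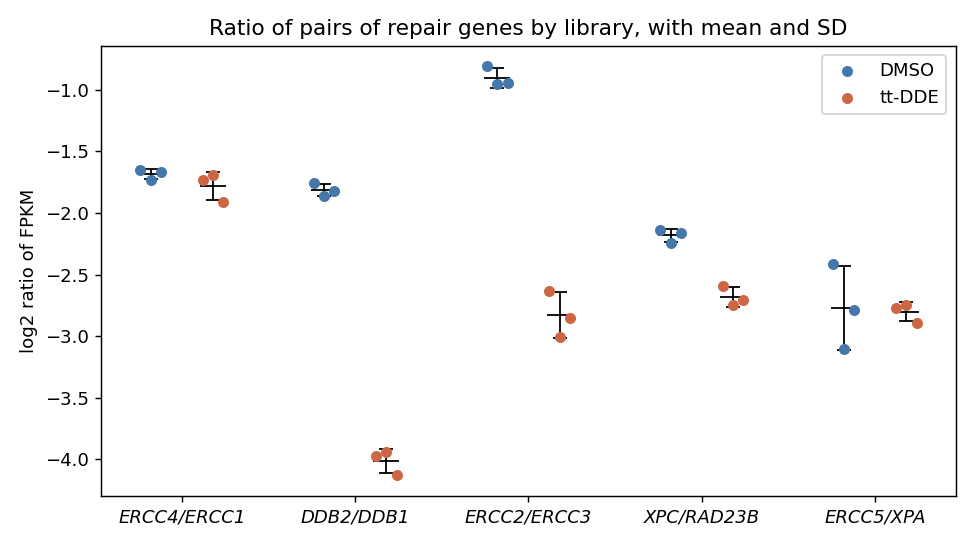
The log2 ratio of FPKM (vertical axis) for 5 pairs of genes in each library; points are libraries, and bars give the mean and SD of 3. The DDB2/DDB1 and ERCC2/ERCC3 ratios differ by -2.20 and -1.93 between tt-DDE and DMSO, while ERCC4/ERCC1 and ERCC5/XPA overlap.

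The other genes of the pathway were read by role, with each count set beside the 83.3% of all genes that passed, 41.7% higher and 41.6% lower. Of 5 recognition partners, 3 fell, 1 rose and 1 did not pass, a share near that background, and their median log2 fold change was -0.33. RBX1, the RING subunit of the CUL4 ligases, fell by 1.26 on the log2 scale, from 59.4 to 24.9 CPM (edgeR adjusted p = 5.46e-19). CETN2, the centrin of the XPC complex, fell from 40.8 to 22.9 CPM, and CUL4B, a ligase scaffold that binds DDB1, fell from 165 to 131 CPM. RAD23B rose from 373 to 501 CPM (edgeR adjusted p = 6.97e-15).

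Of 10 partners of transcription-coupled repair, 7 rose, 2 fell and 1 did not pass, at a median log2 fold change of 0.49. The share that passed in either direction is near that of all genes, of which 41.7% were higher. USP7, a deubiquitinase that stabilises ERCC6 through UVSSA, rose from 159 to 300 CPM, and TCEA1, the elongation factor TFIIS, rose from 184 to 342 CPM. ERCC8, the CSA subunit that works with ERCC6, rose from 12.8 to 18.5 CPM (log2 fold change 0.53, edgeR adjusted p = 4.49e-06), and ELOF1, an elongation factor, rose from 37.8 to 58.5 CPM. HMGN1, a nucleosome-binding protein, fell from 259 to 119 CPM. UVSSA was at 18.9 and 19.8 CPM and did not pass (log2 fold change 0.06, edgeR adjusted p = 0.518), a value whose sign turned with library size alone (-0.029). ERCC6 and ERCC8 thus had changes of opposite sign, -0.91 and 0.53 on the log2 scale.

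Of the 8 other TFIIH subunits 7 were tested, of which 3 rose and 4 fell. GTF2H5, the small subunit TTDA, fell most, from 25.1 to 7.28 CPM (log2 fold change -1.78, edgeR adjusted p = 2.63e-20). Of the subunits of the CDK-activating kinase, CCNH fell from 132 to 68.7 CPM and MNAT1 rose from 30.6 to 44.6 CPM. GTF2H3, a core subunit, fell from 47.7 to 34.4 CPM. GTF2H1, GTF2H2, GTF2H4 and CDK7 each have several rows in the table and 7 to 244 counts over the DMSO libraries, so their values are uncertain.

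Transcripts of the genes for single-strand binding, gap synthesis and ligation, most of which also serve in replication, were lower as a group. Of 21 genes 19 fell and 2 rose, with 41.6% of all genes lower. In 14 genes the fall was at least 2-fold, against 16.8% of all genes. The list median was -1.67 on the log2 scale. PCNA, the sliding clamp, fell from 144 to 17.5 CPM (log2 fold change -3.03, edgeR adjusted p = 6.83e-39). RFC3, a clamp loader subunit, fell from 88.8 to 12.6 CPM, LIG1, the replicative ligase, from 72.8 to 11.4 CPM, and POLD2, a subunit of DNA polymerase delta, from 158 to 49.9 CPM. POLK, a polymerase known to act in repair synthesis, rose from 44.7 to 77.3 CPM (log2 fold change 0.79). The proliferation marker MKI67 fell in the same libraries from 589 to 22.1 CPM, and its part in these falls was not tested.

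RNA polymerase II subunits, whose stalling starts the transcription-coupled route, were lower in 9 of 12 cases, higher in 2 and not past in 1, at a median of -0.42, with 41.6% of all genes lower. POLR2L fell from 164 to 38.9 CPM and POLR2E from 178 to 123 CPM, while POLR2C rose from 68.4 to 125 CPM and POLR2B, the second largest subunit, from 189 to 270 CPM. The authors' annotation places 46 genes of the table in the nucleotide excision repair pathway. Without the 10 genes described here, 36 remain, of which 33 were tested, with 26 lower, 6 higher and 1 not past, at a median of -0.98. Of those 33, 18 are also in the list of gap synthesis and ligation, with 17 lower, and the other 15 had 9 lower, 5 higher and 1 not past, at a median of -0.39.

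**Figure D5:**
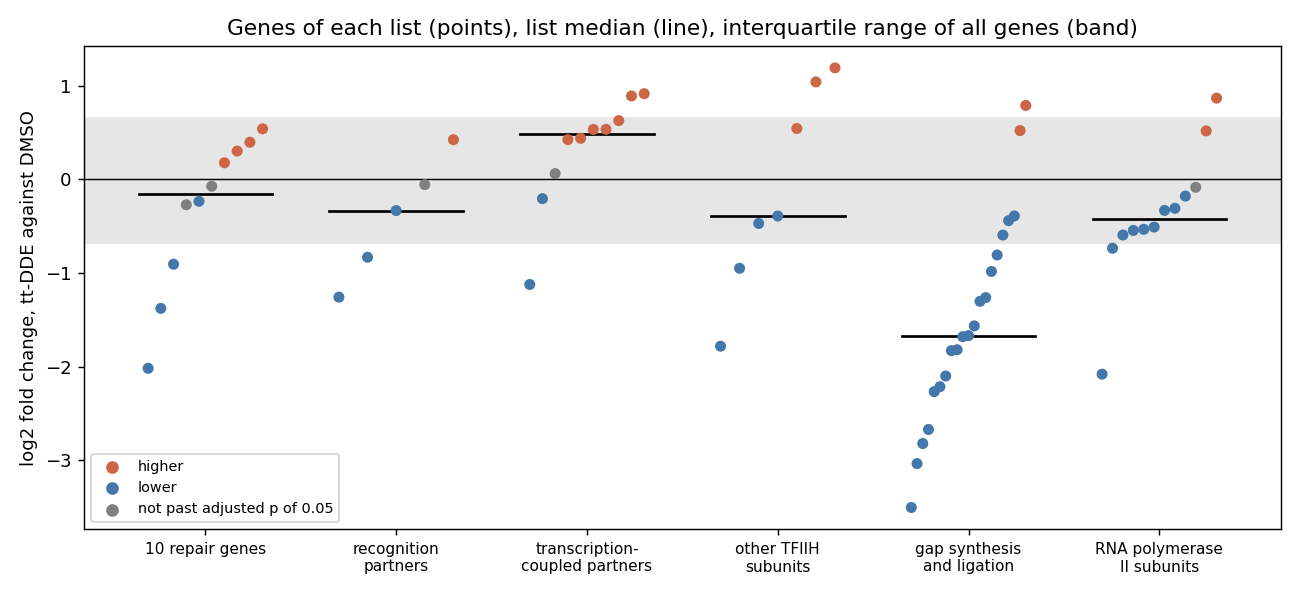
The log2 fold change (vertical axis) of each tested gene in 6 lists; points are genes coloured by the edgeR call, lines are list medians and the band is the interquartile range of all genes tested. The median is -1.67 for gap synthesis and ligation, -0.15 for the 10 repair genes and 0.49 for the transcription-coupled partners.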

How the data were processed

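The 3 DMSO and 3 tt-DDE libraries of ARPE-19 RNA were grouped and numbered by their titles. Per the labels' protocols, RNA was column-purified, selected on oligo(dT) beads, fragmented, copied with random primers and amplified by PCR. The deposited read counts, so named per the file headers, are whole numbers per gene without normalization. FPKM from the authors equalled count over length and column total in all 91254 values above 0 (relative tolerance 1e-06). Per the submitters' processing notes the genome build was GRCh38.p13; aligner, counter and strand setting were not given in the sources used here.

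Counts of rows sharing a name were summed (22312 rows, 19514 names) and tested in R 4.3.3 with edgeR 4.0.16 (filterByExpr, TMM, glmQLFit, glmQLFTest, group alone as term). Tests were two-sided, p-values were adjusted by Benjamini-Hochberg over 12531 genes, and the threshold was 0.05. The SE is the coefficient divided by the root of F. The common dispersion was 0.00134, and the median SE of a log2 fold change was 0.0742. Alternatives used DESeq2 1.42.0, limma 3.58.1 on log2(FPKM + 1) or log2(FPKM + 0.1) with a mean of at least 0.1 FPKM or no filter, other scalings, unsummed rows, a replicate block and leaving out each library. Counts of libraries within a group differed beyond sampling noise, with chi-square over its degrees of freedom at 1.74 to 3.57. The fit was tested on simulated counts. The 10 genes, the lists and the rule for named genes (all 10 genes, up to 4 genes of smallest p per list plus the first of the rarer direction, 6 fixed names, and genes overlapping a member) were chosen with earlier results of these data known. In the list of named genes MKI67 is the only proliferation marker. Some genes of the lists, and 1 list, are not reported here.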

Additional observations from a re-analysis of the deposited data

How the results depend on the processing

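The 4 rises and the falls of DDB2, ERCC2 and ERCC6 kept their direction and their side of the threshold in all 15 alternatives, with log2 fold changes of -2.11 to -1.98 for DDB2, -1.47 to -1.29 for ERCC2, -0.997 to -0.58 for ERCC6, 0.44 to 0.58 for ERCC3, 0.28 to 0.41 for ERCC1, 0.17 to 0.36 for ERCC4 and 0.09 to 0.19 for DDB1. The smallest values for ERCC6 and ERCC4 came from log2(FPKM + 1), which changes both pseudocount and scaling; ERCC6 was -0.93 with log2(FPKM + 0.1), and ERCC4 was 0.21 with library size alone and 0.20 with log2(FPKM + 0.1). XPA lost its call in 4 alternatives and XPC gained one in 5, so that 3 to 5 of the 10 genes were lower and 4 higher throughout. Scaling by library size alone moved the median over all genes to -0.09 on the log2 scale, and with DESeq2, which also kept more genes, it was 0.12. As single libraries were left out, 5142 to 5187 genes were higher and 5114 to 5205 lower. The sign of UVSSA, not past the threshold, turned with library size alone (-0.029), log2(FPKM + 1) (-0.013, with and without the filter) and log2(FPKM + 0.1) (-0.023); the cause was not tested. The lower RNA polymerase II subunits numbered 8 to 10 over the alternatives. The ERCC5/XPA difference ranged from -0.20 to 0.14 as libraries were left out and was 0.0033 with 0.1 added to the FPKM. The replicate numbers are shared by the groups, but same-numbered libraries did not deviate together (correlations 0.017, -0.0058 and -0.012), and with the replicate block 4 of the 10 genes were higher and 4 lower. ERCC5 had the fewest counts of the 10 genes, 36 to 54 per library. Whether depth or the handling of reads in shared exons limits its count was not tested.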

Other observations

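Genes next to the 10 repair genes did not always move with them. Those without an overlap in the deposited coordinates were chosen after their values were seen. LSM3, an RNA-processing gene that starts 215 bases from the XPC row on the opposite strand, fell (log2 fold change -1.28, SE 0.0681, edgeR adjusted p = 8.4e-22), while XPC did not pass at -0.07. Its table start, 14178817 on chromosome 3, lies inside the XPC promoter window printed in the report. TKFC, a kinase gene that starts 122 bases from the DDB1 row on the opposite strand, also fell (-1.27, SE 0.0824, edgeR adjusted p = 1.16e-18), while DDB1 rose by 0.18. In GENCODE, however, exons of LSM3 and TKFC overlap exons of XPC and DDB1, and the part of their reads in those values was not tested. ACP2, which ends 83 bases from the end of DDB2, rose (0.25, edgeR adjusted p = 0.000289) while DDB2 fell, but lost its call with limma on log2(FPKM + 1) (0.16, adjusted p = 0.0512, or 0.0941 without the filter) and on log2(FPKM + 0.1) (0.16, adjusted p = 0.0534).

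Of the paralogs of ERCC6, named here after their values were seen, ERCC6L, a DNA translocase of mitotic chromosomes, fell from 38.0 to 1.39 CPM (log2 fold change -4.76, edgeR adjusted p = 2.78e-32). ERCC6L2 rose slightly, from 38.0 to 44.0 CPM (log2 fold change 0.21, edgeR adjusted p = 0.00359).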
